A study of Homo sapiens with 10 samples.

Results

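Alu elements are short interspersed elements (SINEs) of primates, and RNA from 48 Alu subfamilies was followed here in H1, an established human embryonic stem cell line, after knockdown of 4 chromatin regulators. The members are all rows of the deposited expression table whose identifier starts with SINE:Alu:, 48 of 14785 rows, and no measured value entered the choice. By name they fell into 4 AluJ, 17 AluS and 22 AluY subfamilies and 5 with another name. The table also held 925 other subfamilies of transposable elements (TEs), 13808 genes and 4 transfer RNA rows.

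All cells were H1, grown without feeders in mTeSR1 on Matrigel, with a genotype given as wild type. They received packaged virus carrying a short hairpin RNA (shRNA) against SMARCA4, MAFK, E2F6 or KDM1A, or against luciferase (shLUC), which has no target in human cells, and were then selected with puromycin. Each of the 5 groups had 2 libraries, described by the submitters as biological duplicates, so there were 10 libraries of total RNA. How many hairpins served each target, whether poly(A) RNA was selected and whether reads were assigned by strand are not given in the sources used here. SMARCA4 is the ATPase of BAF chromatin remodelling complexes, KDM1A a histone demethylase, E2F6 a repressive E2F factor and MAFK a small MAF transcription factor.

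Values are the authors' normalized tag counts. Their totals lay between 22836548 and 22855295 in every library. The normalization sets these totals, and the number of reads behind a value is unknown. The targeted transcript stood at 12.7% of the shLUC mean in shSMARCA4, 42.1% in shKDM1A, 61.3% in shE2F6 and 59.6% in shMAFK. In shMAFK its 82 and 216 overlapped with the 212 and 288 of the controls. Among the targets only SMARCA4 passed the limma test described below (adjusted p 8.6e-05). The limma adjusted p was 0.132 for KDM1A, 0.774 for E2F6 and 0.572 for MAFK. All 8 pluripotency markers examined were in the table, with a summed value from 140164 to 267230 per library. Of 20 markers of ectoderm, mesoderm, endoderm, trophoblast and fibroblasts, 8 were in the table. The 2 mesoderm markers summed to 4239 and 856 in the shSMARCA4 libraries and to at most 58 elsewhere, and the endoderm marker FOXA2 to 792 and 170 against at most 4. The same 2 libraries had the lowest sums of the 3 fibroblast markers (5588 and 6737, others 13531 to 27610) and the lowest KRT7, a trophoblast marker (30 and 44, others 125 to 360). In bulk RNA of this kind, fewer cells of a type and less RNA per cell cannot be told apart.

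Alu elements descend from 7SL RNA, the RNA of the signal recognition particle. A full element joins a left and a right arm, each derived from 7SL, and single arms survive as the fossil monomers FLAM, FRAM and FAM. AluJ is the oldest lineage, AluS came next, and AluY holds the youngest elements, some of which, such as AluYa5 and AluYb8, still move. RNA polymerase III can transcribe an Alu from its own promoter, but most Alu sequence in cellular RNA sits inside introns and untranslated regions of RNA polymerase II transcripts, and a value per subfamily does not separate these sources.

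A row is taken to sum reads over all copies of a subfamily, and whether it was scaled by their number or length is unknown. Levels are therefore compared between libraries and not between subfamilies. Alu subfamilies differ at few positions, and how reads that fit several of them were shared is not given in the sources used here, so values of related rows may hold each other's reads. Summed over the 48 rows, Alu made up 3.33% and 3.53% of the total in the shLUC libraries. The shMAFK libraries had 3.60% and 4.19%, those of shSMARCA4 3.48% and 3.17%, those of shE2F6 3.43% and 3.15%, and those of shKDM1A 2.69% and 3.97%. The lowest and the highest but 1 of these shares belonged to the replicates of the same knockdown, shKDM1A.

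A few rows dominated these shares, and their values could move only in steps. Values above 15000 took a fixed set of levels, each held by the same number of rows in every library. Lower values recurred as well, such as the 14274 of FLAM_C in both shSMARCA4 and both shE2F6 libraries. The mark of 15000 is thus not where steps begin. At the top, 10 rows held 148866 and the next level of the Alu rows, 61939, was held by 7 rows, a step of 1.27 on the log2 scale. Of the 48 members, 14 had a value above 15000 and 11 had every value there. AluSx1, the AluS row with the highest mean, held 148866 in all 10 libraries, and AluSx held 61939 in all 10. A change in these 2 rows could not be seen.

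AluJb, the AluJ row with the highest mean, held 148866 in both shLUC and both shMAFK libraries. It held 148866 and 61939 in shSMARCA4, 148866 and 61939 in shE2F6, and 61939 and 148866 in shKDM1A. Within each of these 3 knockdowns the replicates thus differed by a single step, and the same log2 change of -0.63 (SE 0.52) resulted in all 3. AluY, the row for AluY elements placed in no finer subfamily, held 41804 and 51684 in shLUC, and 41804 and 61939 in shSMARCA4 as well as in shE2F6. It held 41804 and 148866 in shMAFK and 30768 and 148866 in shKDM1A. Replicate 2 was the higher library in all 5 groups, and each knockdown overlapped with the controls. Its log2 changes of 0.76 in shMAFK and 0.54 in shKDM1A (SE 0.72), the largest positive changes of any member in those comparisons, therefore rested on 1 library each: without replicate 2 they were -0.15 and -0.60.

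**Figure D1:**
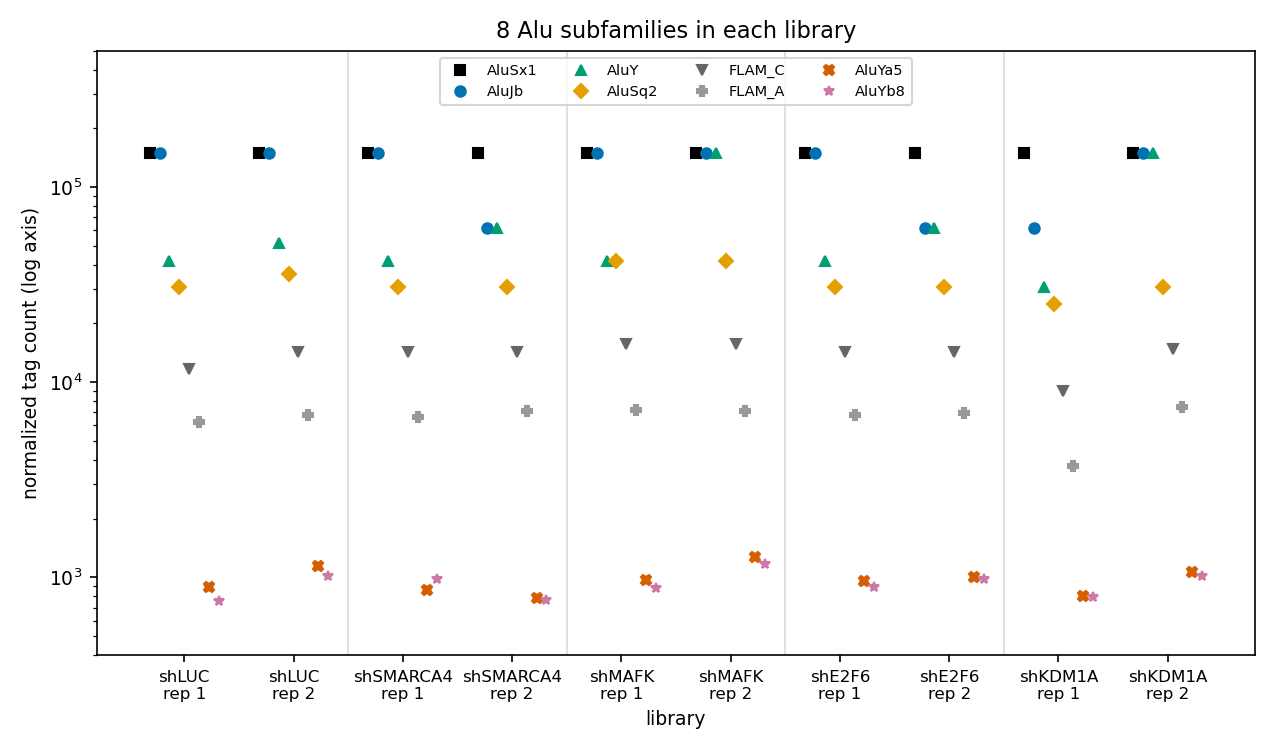
Normalized tag counts (log axis) of 8 Alu subfamilies in each of the 10 libraries; a point is 1 library, points are offset sideways so that equal values can be seen, and vertical lines separate the groups. AluSx1 stays at 148866, AluJb drops to 61939 in 1 library each of shSMARCA4, shE2F6 and shKDM1A, and AluY reaches 148866 in replicate 2 of shMAFK and of shKDM1A.

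Differences from shLUC were tested per knockdown by limma on log2(value + 1), fitted over all 14785 rows and 10 libraries, with p-values adjusted over all rows (Benjamini-Hochberg) and a threshold of 0.05. The 4 comparisons share the shLUC libraries, so their values are given side by side and not set against each other. No Alu subfamily passed in any of them, whether counted as higher or as lower.

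In shSMARCA4 the median change of the Alu rows was small, and single rows moved in both directions. Of 48 members 0 passed the threshold (smallest limma adjusted p 0.28), where 4.18% of all rows did, and 1 had an unadjusted p under 0.05, where 16.3% of all rows did. The median log2 change was 0.05 over the Alu rows, 0.07 over the other TE rows, -0.0018 over genes and 0.01 over all rows. The log2 change was above 0 for 34 members (50.8% of all rows were), below 0 for 10 and 0 for 4; with the medians of the other TE rows set equal between libraries the Alu median was -0.02, with 22 members above 0 and 26 below. It ran from -0.03 when shLUC replicate 1 was left out to 0.20 when shLUC replicate 2 was. Members ranged from -0.63 for AluJb to 0.58 for AluYi6_4d. Both shSMARCA4 libraries lay above both controls for 7 members (14.6%, against 25.6% of all rows) and below them for 1 (2.08%, against 25.4%).

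AluSz6, an AluS subfamily, had the smallest p in this comparison. It held 30768 in both shSMARCA4 libraries and 23453 and 27326 in shLUC, which is 0.28 higher on the log2 scale (SE 0.12; adjusted p 0.28, limma). It held 25021 and 27326 in shKDM1A, 27326 and 25021 in shE2F6, and 27326 in both libraries of shMAFK, so both shSMARCA4 libraries were above the other 8. AluYj4 held 966 and 1158 in the controls and 1319 and 1275 after SMARCA4 knockdown, 0.29 higher (SE 0.18; adjusted p 0.497, limma). AluYi6_4d, the member with the lowest mean of all (77.7), held 72 and 50 in the controls and 88 and 92 after SMARCA4 knockdown (SE of the change 0.39; adjusted p 0.547, limma). The 1 member below both controls was AluYa5, a young lineage that is still active in humans. Its values were 859 and 786, where the controls had 896 and 1149; the log2 change was -0.30 (SE 0.21; adjusted p 0.552, limma). The distance between the 2 controls was wider than that between the group means.

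In shMAFK most Alu rows had a higher mean than in shLUC. The change was larger than the difference between the 2 controls for 15 of 48, upward in all 15. The same count was 8 in shSMARCA4 (7 upward), 6 in shE2F6 (2 upward) and 14 in shKDM1A (1 upward). It was not made over all rows, so no share of all rows stands beside these counts. It set a difference of group means against a difference of single libraries, and where the 2 controls were equal any change counted. In shMAFK the log2 change was above 0 for 42 members, below 0 for 2 and 0 for 4, and 48.9% of all rows were above 0. The median was 0.20 over Alu rows, 0.03 over the other TE rows, -0.0093 over genes and -0.0042 over all rows. Again 0 of 48 passed (smallest limma adjusted p 0.389), where 0.0135% of all rows did, and 2 had an unadjusted p under 0.05 (8.77% of all rows did), both of them higher. Both shMAFK libraries lay above both controls for 15 members (31.2%, against 23.8% of all rows) and below them for 0 (25.3% of all rows). The median difference between the 2 shLUC libraries was 0.23 over the same 48 rows, and the median change ran from 0.07 when shLUC replicate 1 was left out to 0.31 when shLUC replicate 2 was.

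The 2 members with an unadjusted p under 0.05 were AluJr and AluSq2, both on the stepped part of the scale. AluJr held 61939 in both shMAFK libraries and 51684 in the other 8, which is 1 step (log2 change 0.26, SE 0.09; adjusted p 0.389, limma). AluSq2 held 41804 in both shMAFK libraries where the controls had 30768 and 35710 (log2 change 0.33, SE 0.13; adjusted p 0.487, limma). It held 30768 in both shSMARCA4 and both shE2F6 libraries, and 25021 and 30768 in shKDM1A. For both subfamilies the shMAFK pair was above the other 8 libraries. The replicates of shMAFK were equal, so the spread within this group was 0 for these 2 rows. After AluY, the largest positive change was that of AluYi6_4d, with 64 and 100 against 72 and 50, and its groups overlapped. The 2 members below 0 were AluYh3a3, with 200 and 245 against 212 and 242 in shLUC (log2 change -0.03), and AluYg6, with 217 and 262 against 264 and 220 (log2 change -0.02).

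By name group the median change in shMAFK was 0.26 for AluJ, 0.16 for AluS, 0.22 for AluY and 0.13 for the other names. It was 0.17 over the 34 members that never exceeded 15000. The shMAFK libraries were unequal, with medians of 0.09 and 0.28 above the shLUC mean, and shMAFK replicate 2 was the sole highest of the 10 libraries for 43.8% of the members, 21 of 48, where it was so for 10.4% of all rows. MAFK stood at 216 in this library, within the range of the controls (212 and 288), and at 82 in shMAFK replicate 1; whether the Alu values follow the level of MAFK was not tested.

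In shE2F6 Alu rows lay on both sides of the controls. The median log2 change was -0.0003, with 20 members above 0 (49.1% of all rows were), 24 below and 4 at 0. It was 0.0052 with gene medians set equal and -0.07 with the medians of the other TE rows set equal, when 13 members were above 0 and 35 below. It ran from -0.15 without shLUC replicate 1 to 0.10 without shLUC replicate 2. The median change was 0.05 over the other TE rows, -0.0095 over genes and -0.0034 over all rows. Of 48 members 0 passed with limma, as did 0% of all rows, and 0 had an unadjusted p under 0.05 (5.09% of all rows did). Libraries did not overlap for 2 members above (4.17%, against 20.3% of all rows) and 2 below (4.17%, against 20.4%). Those above were AluYi6 and AluYh9, and those below AluYc3 and AluYb9. AluYi6 had the smallest p, with 108 and 128 in the controls and 146 and 196 after E2F6 knockdown (log2 change 0.52, SE 0.24; adjusted p 0.978, limma). It is one of the low rows. AluYi6_4d had a change of 0.51 (SE 0.39), but its values of 70 and 106 overlapped with the 72 and 50 of shLUC. AluYk11 held 126 and 74 against 119 and 166, a log2 change of -0.54 (SE 0.44), and overlapped too.

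In shKDM1A the 2 libraries lay on opposite sides of the controls. Relative to the shLUC mean, replicate 1 had a median of -0.39 on the log2 scale, with 42 of 48 members below it, and replicate 2 a median of 0.15, with 37 members above it. Replicate 1 was the sole lowest of all 10 libraries for 34 members (70.8%), where it was so for 26.8% of all rows. The same library was the sole highest for 24.2% of all rows and for 1 Alu row, AluYh9. It also had the highest summed value of the pluripotency markers (267230, others up to 189447) and of the fibroblast markers COL1A1, COL1A2 and THY1 (27610, others up to 15544), and the less reduced KDM1A (3290, against 1879 in replicate 2). Their part in the low Alu values was not tested. The group change had a median of -0.14 over Alu rows (0.07 over the other TE rows, -0.02 over genes and -0.02 over all rows), with 34 members below 0 and 10 above (47.8% of all rows were above). With the medians of the other TE rows set equal it was -0.31, with 45 members below 0 and 3 above. Without shKDM1A replicate 1 the median was 0.15, and without replicate 2 it was -0.39.

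Of 48 members 0 passed (smallest limma adjusted p 0.46), where 0.0271% of all rows did, and 0 had an unadjusted p under 0.05 (11.5% of all rows did). Without replicate 2, when replicate 1 stands alone, 11 of 48 members passed, where 21.9% of all rows did; the smallest p was that of FLAM_A (adjusted p 0.00518, limma). Both libraries lay below both controls for 3 members (6.25%, against 20.9% of all rows) and above for 0 (17.9% of all rows). The 3 were AluYk12 with 74 and 78 against 79 and 108, AluYh3a3 with 180 and 198 against 212 and 242, and AluYb9 with 62 and 80 against 86 and 82. All 3 are AluY rows with low values. AluSq2 had the smallest p (log2 change -0.26, SE 0.13; adjusted p 0.46, limma). AluYc3 held 327 and 592 where the controls had 506 and 652 (log2 change -0.38, SE 0.28), and AluYc, with 1458 and 1580 against 1155 and 1534, had the largest positive change after AluY (0.19, SE 0.17). Apart from AluJb, AluYc3 had the largest negative change, and both members overlapped with the controls.

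**Figure D2:**
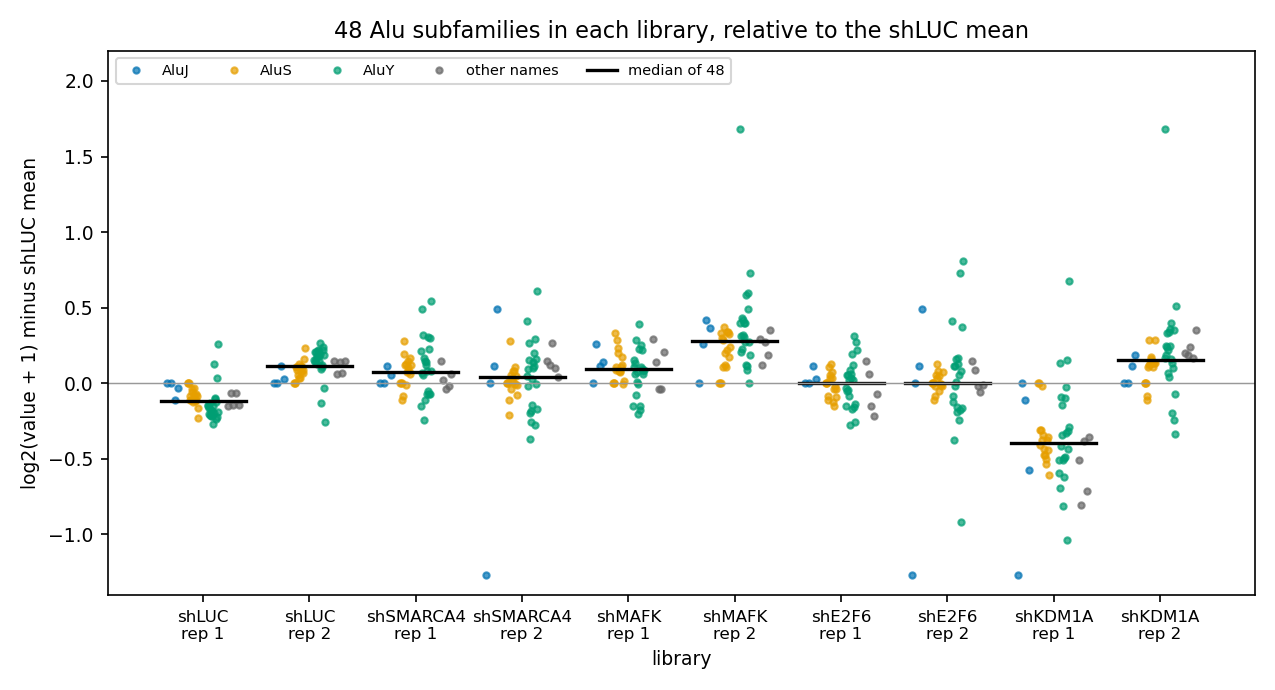
Difference of log2(value + 1) from the mean of the 2 shLUC libraries (vertical axis) for each of the 48 Alu subfamilies in each of the 10 libraries; a point is 1 subfamily, colours give the name group and the black bar is the median of the 48. The bars of the shLUC libraries lie at -0.11 and 0.11, most points of shKDM1A replicate 1 lie below 0, and shMAFK replicate 2 has the highest bar at 0.28.

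The monomer rows were low in the same shKDM1A replicate. FLAM_A, a free left arm, held 6249 and 6828 in shLUC and 3738 and 7440 in shKDM1A. In the other groups it held 7210 and 7097 (shMAFK), 6647 and 7098 (shSMARCA4), and 6828 and 6928 (shE2F6). The 1 low library was thus 3738, and the other 9 lay between 6249 and 7440. FLAM_C, another free left arm, held 11635 and 14274 in shLUC, 9056 and 14834 in shKDM1A and between 14274 and 15759 in the other 6 libraries. FAM, an ancestral monomer, held 3289 and 3604 in shLUC and 2098 and 3873 in shKDM1A, and FRAM, a free right arm, held 3314 and 4034 in shLUC and 2808 and 4309 in shKDM1A. Over the other 6 libraries FAM ran from 2967 to 3928 and FRAM from 3289 to 4426. For these 4 monomers shKDM1A replicate 1 was below the other 9 libraries, and the limma adjusted p of shKDM1A against shLUC ran from 0.62 (FLAM_A) to 0.908 (FRAM).

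Of the 4 youngest lineages, AluYb9 alone was lowest in shKDM1A replicate 1. AluYa5, given above for shLUC and shSMARCA4, held 958 and 1001 in shE2F6, 963 and 1264 in shMAFK and 800 and 1064 in shKDM1A. AluYb8, which is also still active, held 756 and 1018 in shLUC, 882 and 1173 in shMAFK and 985 and 764 in shSMARCA4. It held 889 and 980 in shE2F6 and 794 and 1020 in shKDM1A. For both rows the highest library was shMAFK replicate 2, and every group but shSMARCA4 had its higher value in replicate 2. AluYa8 ran from 182 to 245 and AluYb9 from 62 to 94 over the 10 libraries, and the 2 shLUC libraries held 191 and 221 for AluYa8 and 86 and 82 for AluYb9. The ratio of highest to lowest library was 1.61 for AluYa5, 1.55 for AluYb8, 1.35 for AluYa8 and 1.52 for AluYb9.

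**Figure D3:**
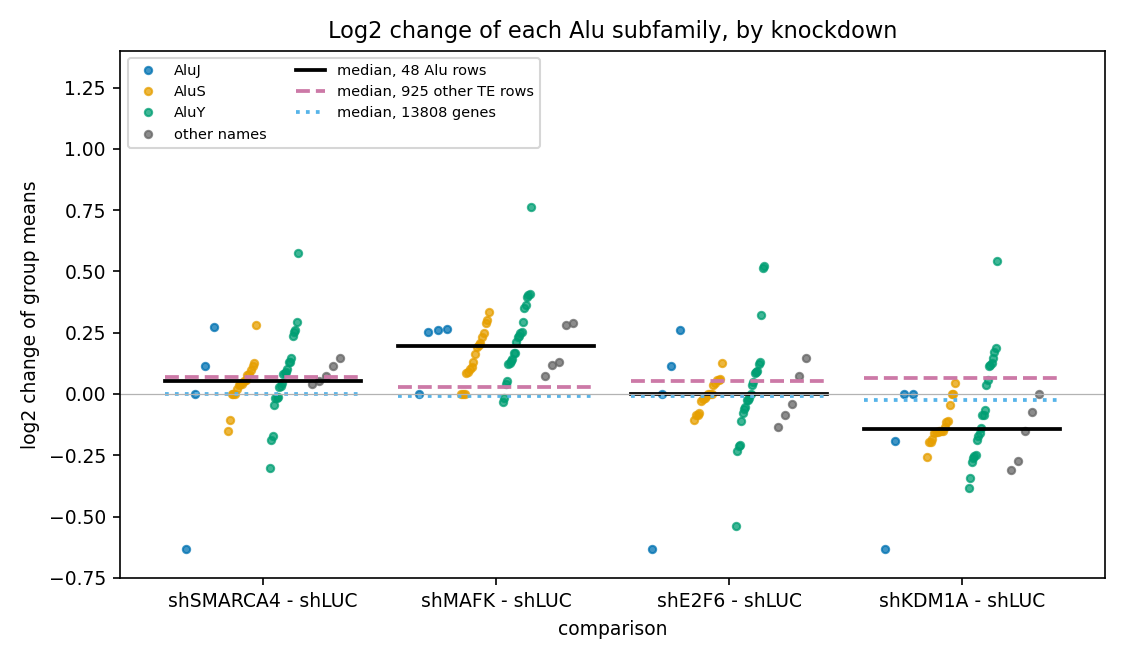
Log2 change of group means (vertical axis) of each of the 48 Alu subfamilies in the 4 comparisons with shLUC; a point is 1 subfamily in the colour of its name group, and bars give the median over Alu rows (solid), other TE rows (dashed) and genes (dotted). The Alu median lies at 0.20 in shMAFK and at -0.14 in shKDM1A, and near the other medians in shSMARCA4 and shE2F6.

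None of the name groups had a member past the threshold. In shKDM1A the medians were -0.10 for AluJ, -0.15 for AluS, -0.09 for AluY and -0.15 for the other names. In shSMARCA4 they were 0.06, 0.04, 0.08 and 0.07 in the same order, and in shE2F6 0.06, 0, -0.01 and -0.04. In shKDM1A replicate 1 alone they were -0.34, -0.38, -0.38 and -0.51. Of the 22 AluY members 19 were below the shLUC mean there and 3 above, and of the 17 AluS members 15 were below and 0 above. Whether the name groups differ in response was not tested.

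Differences among the 4 knockdowns, without the shLUC mean, were examined with limma's moderated F-test in the same fit. Of 48 members 0 passed (smallest limma adjusted p 0.0707), where 6.64% of all rows did, and 2 had an unadjusted p under 0.05 (23.6% of all rows did). The smallest p belonged to AluSq2, whose values are given above. Without both shKDM1A libraries AluSq2 and AluJr passed (limma adjusted p 0.0199 and 0.0483), where 14.3% of all rows did. In both rows the shMAFK pair was above every other library. AluSc, AluSx3 and FLAM_C, looked up after their values were seen, showed the same order, and AluSg and AluYj4 did not. This order was counted neither over the 48 members nor over all rows. Without shKDM1A replicate 1 alone 1 member passed, where 11.2% of all rows did, and without shKDM1A replicate 2 alone 15 of 48 did, where 35.9% of all rows did.

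Replicates of a group often differed in a shared direction over the Alu rows, most of all in shKDM1A, shLUC and shMAFK. Replicate 2 was above replicate 1 for 40 of 48 members in shLUC (47.3% of all rows), 35 in shMAFK (47.5%), 25 in shE2F6 (48.4%), 43 in shKDM1A (51.1%) and 15 in shSMARCA4 (50.2%). Of the 925 other TE rows, 294 were higher in replicate 2 in shLUC, 270 in shMAFK, 468 in shE2F6, 616 in shKDM1A and 763 in shSMARCA4. In shKDM1A most rows of both kinds were thus higher in replicate 2, and in shLUC and shMAFK most Alu rows were and most other TE rows were not. The median difference of replicate 2 from replicate 1 in shLUC was 0.23 over Alu rows and -0.07 over the other TE rows, and in shSMARCA4 it was -0.02 and 0.21.

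Other TE families showed their own levels in the libraries. L1 elements supply the proteins that copy Alu RNA into the genome, and their 130 rows had a median of -0.12 in shKDM1A replicate 1 and 0.22 in replicate 2, relative to the shLUC mean. L1HS, the youngest L1, held 1432 and 1586 in shLUC, 2952 and 2830 in shKDM1A, and between 1087 and 2273 elsewhere. Both shKDM1A values were above the other 8 libraries (log2 change 0.94, SE 0.23; adjusted p 0.245, limma). L1PA2 held 10950 and 10757 in shKDM1A against 7040 and 8086 in shLUC, and L1PA3 35716 and 18610 against 15764 and 13578. The adjusted p of these 2 was 0.375 and 0.346 (limma), and for L1HS and L1PA2 the 2 shKDM1A libraries were close to each other. MIR, the older SINE family that derives from transfer RNA, had a median change of 0 in all 4 comparisons over 5 rows. Most of them held the same value in both groups. These 5 rows summed to between 494545 and 497254 per library, so at least some lay on the stepped part of the scale. A median of 0 there does not show that MIR RNA was unchanged.

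**Figure D4:**
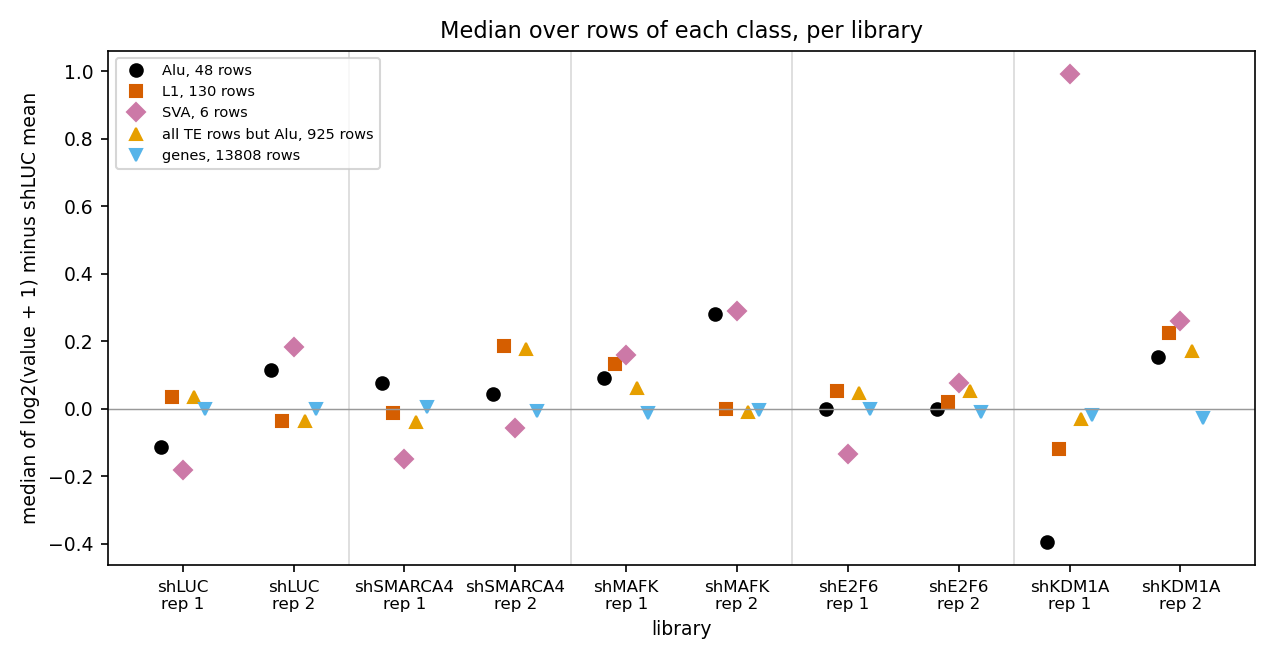
Median over rows (vertical axis) of the difference of log2(value + 1) from the shLUC mean, per library, for Alu, L1, SVA, all TE rows other than Alu, and genes. In shKDM1A replicate 1 the Alu median is -0.39 and the SVA median 0.99. The gene medians lie near 0 in all 10 libraries. As the values were normalized, this does not show that gene RNA as a whole was unchanged.

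Genes that act on Alu RNA or Alu DNA were taken from 4 lists, with 66 of 69 genes in the table. With limma over all rows 0 of 66 passed in any knockdown, where 4.18% (shSMARCA4), 0.0135% (shMAFK), 0% (shE2F6) and 0.0271% (shKDM1A) of all rows did. An unadjusted p under 0.05 was found for 2, 4, 1 and 3 of the 66 in the same order, against 16.3%, 8.77%, 5.09% and 11.5% of all rows. Alu RNA partners include SRP9 and SRP14, the pair of signal recognition particle proteins that binds the Alu fold. Over the 16 genes of this list the median log2 change was -0.09, -0.05, 0.01 and -0.32 in shSMARCA4, shMAFK, shE2F6 and shKDM1A. SRP14 held 3928 and 3966 in shLUC, 2530 and 3289 in shKDM1A, 3550 and 2850 in shE2F6, and between 3046 and 3901 in the other 4 libraries. Both shKDM1A values were below both controls (log2 change -0.45, SE 0.20, limma adjusted p 0.427). The change of SRP14 was -0.64 without shKDM1A replicate 2 and -0.26 without replicate 1. Its change in shE2F6 was -0.31 (adjusted p 1, limma). SRP19, a protein of the other domain of the particle, held 684 and 741 in the controls and 558 and 452 after SMARCA4 knockdown (log2 change -0.50; adjusted p 0.296, limma). SRP54, its GTPase, had a change of -0.22 in shMAFK (limma adjusted p 0.789).

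RNA polymerase III and its factors, 23 of 23 genes, had medians of -0.01, -0.0071, -0.03 and 0.04 in the same order of knockdowns. The smallest p in shKDM1A belonged to the TFIIIC subunit GTF3C5 (log2 change -0.36, with -0.47 without shKDM1A replicate 2 and -0.25 without replicate 1). In the other comparisons it belonged to the polymerase subunits POLR3D in shSMARCA4 (-0.38), CRCP in shMAFK (0.40) and POLR3GL in shE2F6 (-0.30). Their limma adjusted p ran from 0.322 for POLR3D to 1 for POLR3GL. Editing and sensing of double-stranded RNA, 8 of 11 genes, had medians of 0.13, 0.05, 0.13 and 0.14. The smallest p belonged to the RNA sensor IFIH1 in shSMARCA4 (139 and 128 against 63 and 80, log2 change 0.90, limma adjusted p 0.361), and to the editing enzyme ADARB1 in shMAFK (0.18, and -0.01 with Alu medians set equal) and shE2F6 (0.24). None of these changes was past the threshold.

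TE and SINE silencing genes, 19 of 19 in the table, had medians of -0.01, -0.07, -0.0011 and 0.03. SUV39H1, a histone H3K9 methyltransferase, held 497 and 389 in shLUC and 247 and 254 in shMAFK (log2 change -0.81, SE 0.16; adjusted p 0.141, limma). It held 314 and 316 in shKDM1A (log2 change -0.48, limma adjusted p 0.366), 347 and 366 in shE2F6, and 446 and 406 in shSMARCA4. The shMAFK pair was the lowest of the 5, and with a separate weight for each group its limma adjusted p was 0.0137. CBX5, a heterochromatin protein of the HP1 family, held 18607 and 25021 after SMARCA4 knockdown and 12340 and 13159 in the controls (log2 change 0.76; adjusted p 0.157, limma), and passed with group weights, with only the 2 groups compared and without both shKDM1A libraries (limma adjusted p 0.0212 to 0.0349). DNMT3B, a DNA methyltransferase that embryonic stem cells express highly, held 35710 and 30768 after E2F6 knockdown and 27326 and 25021 in the controls (log2 change 0.34; adjusted p 0.901, limma). These 3 genes are the members of the list with the smallest p, and none passed in the fit of all 10 libraries with equal weights. How many of all rows passed in the alternative fits named for SUV39H1 and CBX5 was not counted.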

How the data were processed

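RNA-seq of 10 H1 libraries was used. The deposited values are treated as scores: whole numbers that the authors had normalized to nearly equal totals and that are not raw counts. The file's abbreviated unit is read as normalized tag counts. The submitters' processing notes name STAR, STARsolo and hg38, with no roles; the counter, the annotation and the normalization are not given in the sources used here. Groups and replicate numbers came from the sample titles; 0 columns were unmapped. The authors' table of group means was not used.

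Values were analysed as log2(value + 1), with no row filtered, so all 48 members were tested. A fold change on this scale understates changes of low rows. Limma 3.58.1 in R 4.3.3 (lmFit and two-sided eBayes tests with a trend of the variance on the mean) fitted 5 group means to 10 libraries with 5 residual degrees of freedom; the script was tested on simulated data. Tables were made with Python 3.11.15 and pandas 2.3.3, plots with matplotlib 3.10.9.

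Members named with values were the highest row of each name group, the lowest row, young lineages, monomers, the 2 largest changes in each direction per knockdown, and the smallest p-values; of each list, the gene with the smallest p. The gene of 1 list in shKDM1A is not reported here. Rows named because they did not overlap, AluSx, AluSc, AluSx3, AluSg and the 2 rows with unadjusted p under 0.05 were chosen after their values were seen. The members and lists were chosen with earlier results of these data known. Alternatives covered the pseudocount, filter, scaling, variance model, libraries in the fit, replicate number as a block and leaving out each library.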

Additional observations from a re-analysis of the deposited data

How the results depend on the processing

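The finding of 0 Alu rows past the threshold was the same under every alternative run for shSMARCA4 and shE2F6. These included the replicate block, other pseudocounts (0.5 and 10), a filter at a mean of 100 and quantile normalization. Quantile normalization was a weak check, because all libraries already shared the same levels above 15000. It left the Alu medians of shMAFK, shE2F6 and shKDM1A unchanged at 0.1969, -0.0003 and -0.1435. For shMAFK 1 row of 48 passed (AluJr, limma adjusted p 0.0354) in a fit of only the 2 groups compared (0.135% of all rows did), where its spread was 0 by the steps of the scale. In the F-test among the 4 knockdowns 1 row passed when groups were weighted (10.4% of all rows did) and 2 when both shKDM1A libraries were left out. Leaving out 1 library gave from 0 to 11 rows for shKDM1A and from 0 to 15 for the differences among knockdowns, the highest number in both cases without shKDM1A replicate 2 (21.9% and 35.9% of all rows passed there), when shKDM1A replicate 1 stood alone and was assumed to vary like the other groups.

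Leaving out 1 library moved the median change from -0.0265 to 0.20 in shSMARCA4, from 0.07 to 0.31 in shMAFK, from -0.15 to 0.10 in shE2F6 and from -0.39 to 0.15 in shKDM1A; the ends were set by shLUC libraries in the first 3 and by shKDM1A libraries in the last. Setting the medians of the other TE rows equal gave -0.02, 0.17, -0.07 and -0.31, and it moved the median of all rows by -0.08, -0.02, -0.07 and -0.17. Single changes whose sign turned when 1 library was left out were those of AluY (-0.60 to 1.68 in shKDM1A, -0.15 to 1.68 in shMAFK), AluYc (-0.0153 to 0.39) and AluYc3 (-0.81 to 0.0435) in shKDM1A, and AluYg6 (-0.15 to 0.12) and AluYh3a3 (-0.18 to 0.11) in shMAFK. With Alu medians set equal, an alternative chosen after seeing the data, 0 rows passed in every comparison, and ADARB1 in shMAFK was at -0.0143. The cause of these shifts was not tested.

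With the replicate number as a replicate block, 0 Alu rows passed in each comparison and in the F-test. Elsewhere the replicate numbers were taken as names only. The correlations of replicate deviations over all rows ran from -0.05 to 0.337 in 10 pairs of groups, and 2 exceeded 0.1. Over the 48 Alu rows, the difference of replicate 2 from replicate 1 had the same sign in shLUC and shKDM1A for 38. The count was 34 for shLUC and shMAFK, 33 for shMAFK and shKDM1A, and 12 to 24 for the other pairs. Whether replicate numbers mark a shared handling of libraries was not tested.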

Other observations

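SVA elements, young composite retrotransposons that carry an Alu-like part, were examined after their values were seen. Their 6 rows had a median log2 change of 0.62 in shKDM1A, with 6 of 6 above 0 and 3 above both controls (17.9% of all rows were), while the Alu median was -0.14. Of the 6, 0 passed with limma over all rows (smallest limma adjusted p 0.372), where 0.0271% of all rows did, and 3 had an unadjusted p under 0.05, where 11.5% of all rows did. The replicates differed: relative to the shLUC mean the SVA median was 0.99 in shKDM1A replicate 1, the library with the lowest Alu values, and 0.26 in replicate 2. In the other knockdowns the SVA medians were -0.10 (shSMARCA4), 0.26 (shMAFK) and -0.04 (shE2F6).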
